A study of Homo sapiens with 9 samples.

Results

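The ERBB receptors and their ligands were followed in OVCAR3, an established cell line from a human ovarian carcinoma, by poly-A RNA sequencing. The set was chosen by gene name and holds 10 of the 58735 genes in the count table: the 4 receptors EGFR, ERBB2, ERBB3 and ERBB4, and the 6 ligands AREG, EREG, TGFA, HBEGF, BTC and NRG1. The 9 samples formed 3 groups of 3 replicates. Control cells carried a scramble short hairpin RNA and are labelled wild type. The other groups carried hairpin 76 or hairpin 78 against GPX3, which encodes a secreted glutathione peroxidase, and are labelled as GPX3 knock-downs; they are called sh76 and sh78 here. All groups were the same cell line after 72 h of culture in medium with serum and added bovine insulin. Each hairpin is a single reagent, and the labels do not say whether replicates came from separate transductions or cultures, so p-values measure the spread between these samples, which may be technical.

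The ERBB receptors are transmembrane tyrosine kinases that signal as dimers to the RAS-MAPK and PI3K-AKT pathways. EGFR binds AREG, EREG, TGFA, HBEGF and BTC, all made as membrane-bound precursors that metalloproteases of the ADAM family release. NRG1 binds ERBB3 and ERBB4, HBEGF, BTC and EREG also bind ERBB4, ERBB2 has no known ligand of its own, and the kinase of ERBB3 is weak, so the family works through mixed pairs. In ovarian carcinoma the family is known for autocrine loops in which tumour cells make both a receptor and its ligand.

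The levels of the targeted gene and of marker genes were checked first. GPX3 had 173.2, 109.2 and 117.3 CPM in the scramble libraries, 56.81, 55.19 and 55.54 CPM with sh76 and 35.28, 28.41 and 28.26 CPM with sh78. CPM are counts divided by the TMM-scaled size of each library. Every knock-down library lay below every scramble library (log2 fold change −1.25, edgeR adjusted p = 0.00264, for sh76; −2.12, adjusted p = 0.000125, for sh78). The libraries held 14652965 to 21327562 counts, and mitochondrial genes took 4.242 to 5.164% of them. All 10 markers of ovarian carcinoma epithelium, among them PAX8, WT1 and MUC16, had at least 10 counts in every library, with a summed level of 2682 to 3022 FPKM in scramble, 2585 to 2990 FPKM with sh76 and 2159 to 2424 FPKM with sh78. FPKM values divide the count by the length of the gene as well as by the size of the library. The 6 fibroblast markers summed to 2.702 to 3.933, 3.053 to 5.583 and 3.467 to 4.695 FPKM in the same order, the 5 leukocyte markers to 0.4681 to 0.6348, 0.5695 to 0.8664 and 0.506 to 0.9425 FPKM, and the 4 endothelial markers to 2.173 to 2.477, 2.428 to 3.184 and 3.146 to 4.286 FPKM. Of the fibroblast markers, DCN had 0 to 11 counts and LUM 0 to 3 counts in a library, whereas COL1A1 had 397 to 919 counts. The library of sh76 replicate 2 stood apart on that list, with 53 counts of COL3A1 against 0 to 4 in the other 8 libraries and 142 counts of COL1A2 against 19 to 51. The part of these markers in the results below was not tested, and values without that library, or ranges that include it, are given where a call rests on it.

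Of the members, AREG, EREG and BTC are neighbours. With EPGN, a ligand of the same family outside the set, they lie in a cluster of 486 kb on chromosome 4 (GRCh38, from 74308473 to 74794686), EPGN, EREG and AREG on the plus strand and BTC on the minus strand. No promoter window was examined for ERBB3 or NRG1, so the promoter values below do not cover them. For the other 8 of the 10 members, RefSeq (GRCh38.p14) windows of 300 bases were used, 10 windows in all. The GC content of these 10 windows ran from 42.0 to 75.3%, against a median of 58.7% over 35116 promoters. The 80 bases that precede the start site are shown for the neighbours AREG and EREG and, for contrast, for the GC-rich first start of EGFR, with matches to TATAAA (the TATA box) and TGACGTCA (the cyclic AMP response element) in capitals.
AREG: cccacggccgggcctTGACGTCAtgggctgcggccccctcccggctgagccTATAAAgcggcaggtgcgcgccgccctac
EREG: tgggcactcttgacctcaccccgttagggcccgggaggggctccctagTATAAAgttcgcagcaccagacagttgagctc
EGFR: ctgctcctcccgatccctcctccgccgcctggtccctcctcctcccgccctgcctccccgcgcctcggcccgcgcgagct
These are chr4:74445056-74445135, chr4:74365065-74365144 and chr7:55018937-55019016, all on the plus strand. TATAAA began 29 bases before the start in AREG and 32 bases before it in EREG, and TGACGTCA began 65 bases before the start of AREG. Searched on both strands, the 80-base window held TATAAA in 4.35% and TGACGTCA in 0.99% of all promoters, and neither motif overlaps the other. The first EGFR start had no match to either motif in its window, whereas a second annotated EGFR start had TATAAA 36 bases upstream. BTC, the neighbour not shown, had no match to either motif in its 300 bases, and neither had the remaining windows of the set. A match describes these letters and is not a measured binding site.

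EGFR, ERBB3 and ERBB2 transcripts were the most abundant of the set per unit of length, and EREG the least. In scramble cells the median level was 21.2 FPKM for EGFR (15.7 to 22.3), 18.2 FPKM for ERBB3 (18.0 to 20.1) and 15.6 FPKM for ERBB2 (14.9 to 16.9). EGFR and ERBB3 overlapped in every group and so did not differ beyond their spread, and in scramble the low library of EGFR also fell within the range of ERBB2. The ligand BTC followed at 12.3 FPKM (11.9 to 12.5), then TGFA at 6.77 FPKM (6.57 to 7.75), and both exceeded the fourth receptor, ERBB4, at 4.77 FPKM (4.60 to 4.78). BTC and TGFA were the ligand transcripts with the highest levels, above every other ligand of the set in every library. AREG had a median of 1.60 FPKM (0.929 to 1.73), HBEGF 0.613 FPKM (0.386 to 0.647) and NRG1 0.467 FPKM (0.405 to 0.522), the last pair overlapping. EREG, at 0.0611 FPKM (0.0335 to 0.0904), lay below all of them without overlap.

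**Figure D1:**
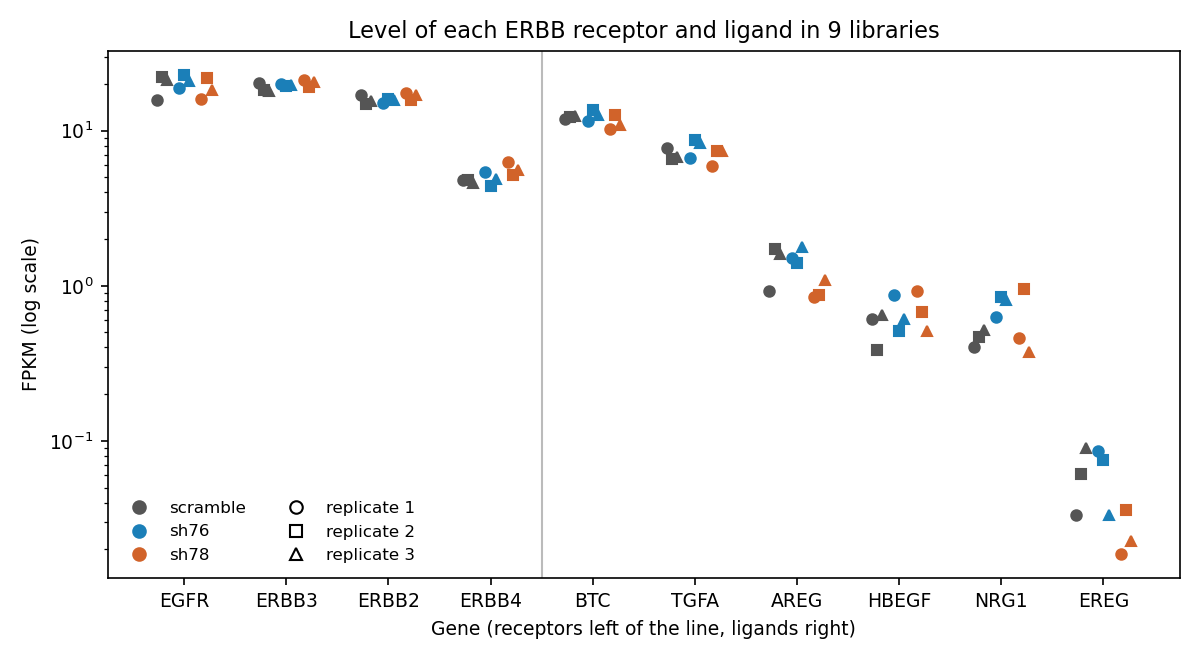
Level of each gene in each library, in FPKM on a log axis, receptors on the left and ligands on the right. Colours mark the group and symbols the replicate number; the genes spread from about 20 FPKM for EGFR and ERBB3 down to EREG, whose highest value was 0.0904 FPKM.

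The order of the first 7 genes was the same with sh76 as in scramble, and NRG1 (median 0.815 FPKM) then stood above HBEGF (0.612 FPKM), again with overlapping ranges. With sh78, ERBB3 (20.5 FPKM) had a higher median than EGFR (18.3 FPKM), and EGFR overlapped both ERBB3 and ERBB2 (17.0 FPKM). In sh78 TGFA (5.93 to 7.41 FPKM) also overlapped ERBB4 (5.22 to 6.27 FPKM), and AREG (median 0.872 FPKM) overlapped HBEGF (median 0.680 FPKM).

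In the main fit, with 1 coefficient per group and a count filter, no receptor or ligand passed the threshold in any comparison of the groups. Some passed in the alternative fits given below. The main fit used the quasi-likelihood test of edgeR, adjusted over the 17023 genes tested with a threshold of 0.05. It called 0 of the 9 members that had enough counts for testing. It called 3.58% of all genes for sh76 against scramble, 4.41% for sh78 against scramble, 4.04% for the mean of both hairpins, again against scramble, and 3.70% for sh78 against sh76. An unadjusted p under 0.05 was reached by 1, 2, 0 and 2 members in those comparisons, and DESeq2 also called 0, with 1, 1, 1 and 2 members under that unadjusted value. EREG, with 2 to 9 counts in a library, was the member left out of the tests. The median log2 fold change of the 9 members was 0.08 for sh76 and 0.09 for sh78 against scramble and −0.15 for sh78 against sh76, beside medians over all genes of 0.0064, 0.00628 and 0.000288. Both comparisons with scramble share the same control libraries.

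Same-numbered replicates of different groups deviated together over all genes, and a fit that took replicate numbers as blocks called many more genes. It called 20.4% of all genes for sh76 against scramble, 19.9% for sh78 against scramble, 20.3% for the mean of both hairpins and 18.3% for sh78 against sh76. Among the 9 members it called NRG1 for sh76, ERBB4 for sh78 and for the hairpin mean, and EGFR, ERBB4 and AREG for sh78 against sh76. The member counts of 1, 1 and 1 of 9 against scramble are below the background of that fit, and 3 of 9 between the hairpins is above it. With 9 members, 1 call more or less shifts such a share across the background.

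**Figure D2:**
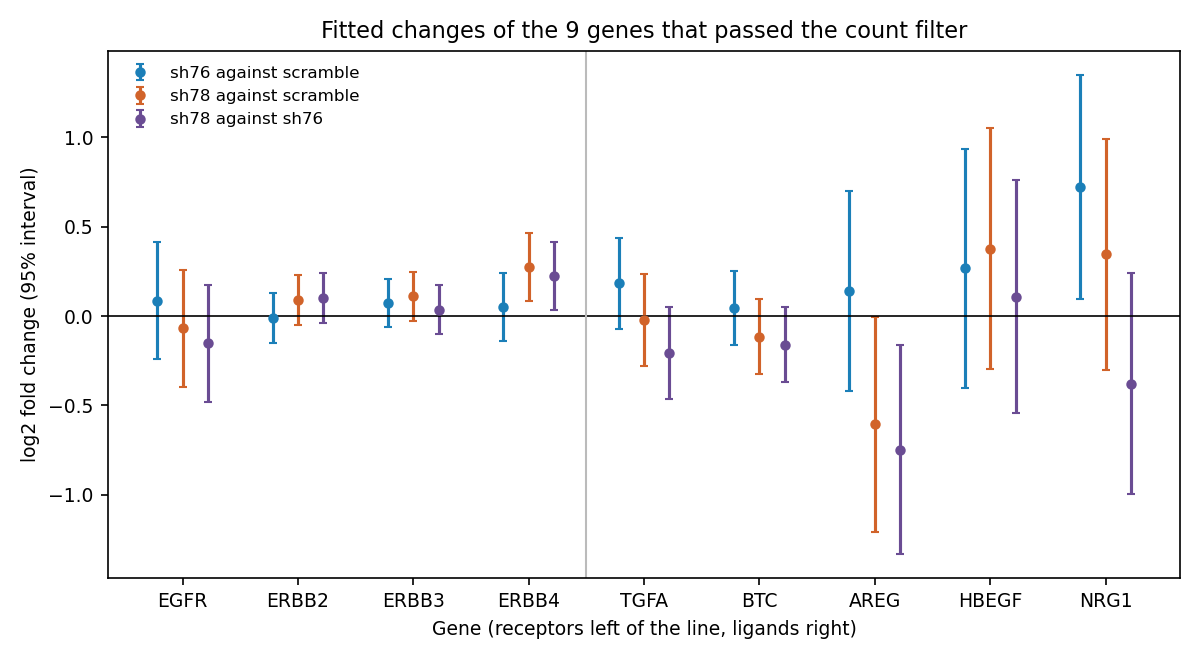
Fitted log2 fold change of the 9 tested genes with 95% intervals, for sh76 and sh78 against scramble and sh78 against sh76, without the replicate block. The intervals of ERBB4 (sh78), NRG1 (sh76) and AREG (sh78) exclude 0 before adjustment, and none passed the adjusted threshold.

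Among the receptors, EGFR varied most between replicates and ERBB4 had the largest fold change against scramble. EGFR (ENSG00000146648, chromosome 7, 55019021 to 55211628, plus strand) had 198.6, 281.1 and 265.2 CPM in scramble replicates 1 to 3, 236.6, 290.7 and 262.6 CPM with sh76, and 203.3, 276.6 and 231.4 CPM with sh78. The groups overlapped, and replicate 1 was the lowest library of each group, with differences from the mean of replicates 2 and 3 of −0.459, −0.224 and −0.315 log2 CPM. Its fitted log2 fold change was 0.08 (95% interval −0.242 to 0.412, edgeR adjusted p = 0.832) for sh76 and −0.07 (−0.396 to 0.26, adjusted p = 0.876) for sh78. For sh78 against sh76 it was −0.15 (−0.48 to 0.175, adjusted p = 0.69). Within each replicate number sh78 lay below sh76, with differences of −0.219, −0.072 and −0.182 log2 CPM, and with the block this difference passed (−0.16, adjusted p = 0.0129). Adjusted p over the alternatives ran from 0.0129 to 0.921. Differences within replicate numbers were taken for the members only, so no share of all genes stands beside them, here or below.

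ERBB2, the preferred partner of the other receptors, and ERBB3, its main neuregulin-binding partner, gave narrow intervals that included no change in the main fit. ERBB2 (ENSG00000141736, chromosome 17, 39687914 to 39730426, plus strand) had 175.6, 154.7 and 161.2 CPM in scramble, 157.7, 166.0 and 164.2 CPM with sh76, and 182.3, 164.4 and 176.3 CPM with sh78. Its log2 fold change was −0.01 (−0.151 to 0.13) for sh76 and 0.09 (−0.0502 to 0.23) for sh78, with edgeR adjusted p = 0.961 and 0.548. ERBB3 (ENSG00000065361, chromosome 12, 56076799 to 56103505, plus strand) had 183.6, 166.0 and 162.9 CPM in scramble, 182.4, 178.4 and 178.4 CPM with sh76, and 192.5, 174.3 and 186.3 CPM with sh78. The groups of both genes overlapped. For ERBB3 the log2 fold change was 0.07 (−0.0633 to 0.21) and 0.11 (−0.0268 to 0.247), with edgeR adjusted p = 0.611 and 0.417. These intervals were the narrowest of the set, and the one for ERBB3 with sh78 reached up to 1.19-fold. Within replicate numbers, sh78 lay above scramble by 0.053, 0.088 and 0.129 log2 CPM for ERBB2. For ERBB3 the differences were 0.068, 0.07 and 0.194 log2 CPM. With sh76 each gene was above scramble in 2 of 3. With the block the sh78 interval was 0.0209 to 0.201 for ERBB3 (edgeR adjusted p = 0.0741) and −0.00369 to 0.185 for ERBB2 (adjusted p = 0.184).

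ERBB4, the receptor with a full kinase that binds neuregulins directly, was highest with sh78. ERBB4 (ENSG00000178568, chromosome 2, 211375717 to 212538841, minus strand) had 62.62, 62.78 and 59.94 CPM in scramble, 70.75, 57.76 and 63.51 CPM with sh76, and 82.3, 68.23 and 73.6 CPM with sh78. All 3 sh78 libraries were above all 3 scramble libraries, and sh76 overlapped both groups. Ranges lay apart for 1 of the 9 members here, against 21.5% of all genes. Against scramble, sh78 had a log2 fold change of 0.28 (SE 0.0885, 95% interval 0.0858 to 0.465, 1.21-fold), with edgeR adjusted p = 0.106. With the replicate block it was 0.27 with adjusted p = 0.000416, and without a count filter adjusted p was 0.0411; over all alternatives adjusted p ran from 0.000416 to 0.333. For sh78 against sh76 the log2 fold change was 0.23 (0.0367 to 0.414, adjusted p = 0.207), and 0.23 with adjusted p = 0.00314 in the blocked fit. The differences within replicate numbers 1, 2 and 3 were 0.218, 0.240 and 0.212 log2 CPM, so sh78 was higher in 3 of 3. For the mean of both hairpins the log2 fold change was 0.16 with adjusted p = 0.292, and 0.16 with adjusted p = 0.0192 with the block. For sh76 against scramble ERBB4 had a log2 fold change of 0.05 (−0.139 to 0.239).

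**Figure D3:**
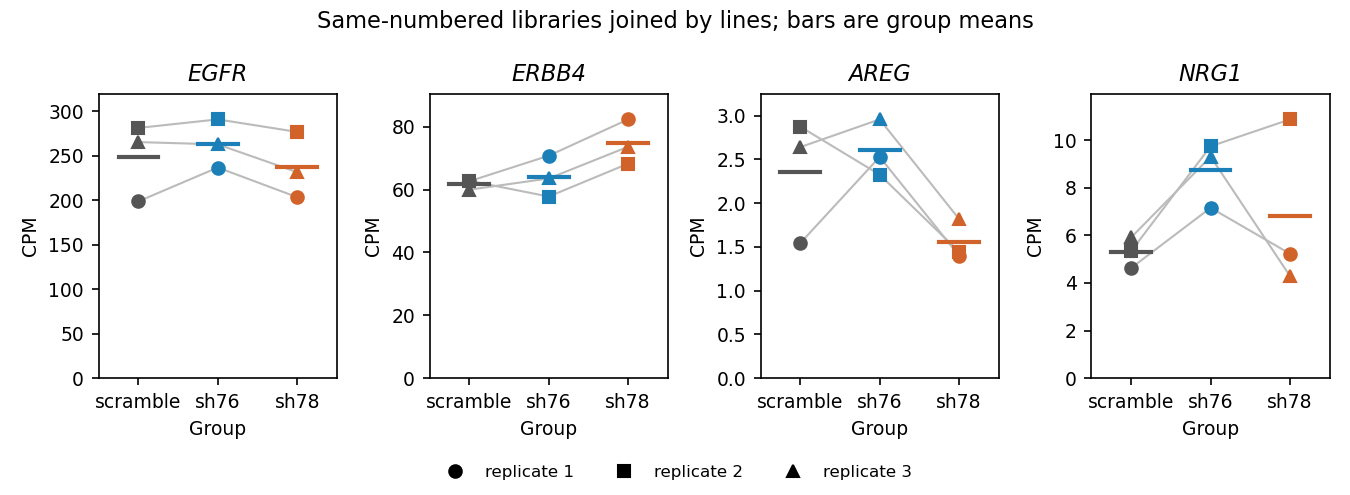
CPM of EGFR, ERBB4, AREG and NRG1 in every library, with grey lines joining libraries of the same replicate number and bars at group means. Lines for ERBB4 rise and lines for AREG fall from sh76 to sh78 in all 3 replicate numbers, and the sh78 replicate 2 library carries the highest NRG1 value, 10.87 CPM.

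Of the tested ligands, NRG1 with sh76 and AREG with sh78 had the largest fitted fold changes, and sh78 replicate 2 was also high in NRG1. NRG1, the neuregulin that binds ERBB3 and ERBB4 (ENSG00000157168, chromosome 8, 31639386 to 32767959, plus strand), had 4.629, 5.34 and 5.914 CPM in scramble, 7.156, 9.74 and 9.305 CPM with sh76, and 5.225, 10.87 and 4.287 CPM with sh78. All sh76 libraries were above all scramble libraries, as were 22.5% of genes in one or the other direction, and the sh78 libraries spanned both groups. With sh76 the log2 fold change of NRG1 was 0.72 (SE 0.288, 95% interval 0.0965 to 1.35, 1.65-fold), with edgeR adjusted p = 0.211. It passed with the replicate block (0.72, adjusted p = 0.021) and without a count filter (0.72, adjusted p = 0.00563), and adjusted p ran up to 0.454 over the alternatives. Without sh76 replicate 2, the library with the highest COL3A1 and COL1A2 counts, it was 0.64 with adjusted p = 0.454. Leaving out that library also took the calls over all genes for sh76 from 610 to 237.

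One sh78 library decided the NRG1 values of that hairpin. With all libraries the log2 fold change of sh78 against scramble was 0.35 (−0.30 to 0.991, edgeR adjusted p = 0.625), and without sh78 replicate 2 it was −0.16 (adjusted p = 0.80). For sh78 against sh76 the log2 fold change moved from −0.38 (adjusted p = 0.584) to −0.87 (adjusted p = 0.0457) when that library was left out, and adjusted p ran from 0.0457 to 0.879 over the alternatives. Leaving it out also brought the sh76 comparison past the threshold (0.72, adjusted p = 0.0465). For the mean of both hairpins the log2 fold change was 0.53 (adjusted p = 0.309), and 0.53 with adjusted p = 0.0415 without a count filter. NRG1 had 66 to 201 counts in a library.

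AREG, the amphiregulin precursor and a lower-affinity EGFR ligand, was lowest with sh78. AREG (ENSG00000109321, chromosome 4, 74445134 to 74455009, plus strand) had 1.543, 2.875 and 2.641 CPM in scramble, 2.529, 2.326 and 2.958 CPM with sh76, and 1.40, 1.444 and 1.819 CPM with sh78. The sh78 libraries were all below the sh76 libraries, a separation seen for 1 of 9 members and 21.8% of genes, and overlapped scramble only through scramble replicate 1. Between the hairpins, sh78 had a log2 fold change of −0.75 (SE 0.274, 95% interval −1.33 to −0.159, 0.596-fold), with edgeR adjusted p = 0.173. With the replicate block it was −0.73 with adjusted p = 0.0383, the lowest of the alternatives, which reached 0.378. The differences within replicate numbers were −0.803, −0.646 and −0.668 log2 CPM, so sh78 was lower in 3 of 3. Against scramble the log2 fold change was −0.61 (−1.21 to −0.00627, adjusted p = 0.28) for sh78 and 0.14 (−0.417 to 0.699, adjusted p = 0.843) for sh76. AREG rests on 21 to 62 counts in a library, which limits its precision.

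The highest ligand transcripts, BTC and TGFA, did not pass any test. BTC, betacellulin (ENSG00000174808, chromosome 4, 74744759 to 74794686, minus strand), had 33.69, 34.97 and 35.14 CPM in scramble, 32.63, 38.62 and 35.74 CPM with sh76, and 29.09, 35.97 and 30.92 CPM with sh78. Its log2 fold change was 0.04 (−0.162 to 0.252) for sh76 and −0.12 (−0.325 to 0.0943) for sh78, with edgeR adjusted p = 0.87 and 0.618. TGFA, transforming growth factor alpha, a high-affinity EGFR ligand (ENSG00000163235, chromosome 2, 70447280 to 70554193, minus strand), had 38.77, 32.86 and 33.59 CPM in scramble, 33.37, 43.81 and 41.94 CPM with sh76, and 29.68, 36.86 and 37.03 CPM with sh78. For TGFA the fitted values were 0.18 (−0.072 to 0.437) and −0.02 (−0.282 to 0.233), with edgeR adjusted p = 0.468 and 0.949. Both were lower with sh78 than with sh76 in each of the 3 replicate numbers, with log2 fold changes of −0.16 for BTC and −0.21 for TGFA and adjusted p = 0.464 and 0.432 (0.112 and 0.176 with the block).

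HBEGF and EREG were near the limit of what these libraries could resolve. HBEGF, the heparin-binding ligand (ENSG00000113070, chromosome 5, 140332843 to 140346631, minus strand), had 20 to 52 counts in a library, at 1.864, 1.174 and 1.952 CPM in scramble, 2.653, 1.551 and 1.861 CPM with sh76, and 2.801, 2.063 and 1.559 CPM with sh78. The groups overlapped throughout. Its log2 fold changes of 0.27 (−0.40 to 0.935) and 0.38 (−0.296 to 1.05) had edgeR adjusted p = 0.723 and 0.61, and the intervals allow a change of up to 2.07-fold. EREG, epiregulin (ENSG00000124882, chromosome 4, 74365143 to 74388751, plus strand), had 3, 6 and 9 counts in scramble, 8, 9 and 4 counts with sh76, and 2, 3 and 2 counts with sh78. The sh78 group is at or under a floor of 3 counts in each library, so no fold is given for it. Exact two-sided permutation tests of its CPM gave p = 0.2 for sh78 against scramble, p = 0.2 for sh78 against sh76 and p = 1 for sh76 against scramble, where 3 libraries against 3 cannot go below 0.1. In the edgeR fit without a count filter EREG had adjusted p = 0.664, 0.626 and 1 for those comparisons, from 2 to 9 counts in a library.

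In the comparison of the 6 knock-down libraries with the 3 scramble libraries, 0 of the 9 members had separate ranges, against 8.39% of all genes.

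The libraries do not record strand, so reads from overlapping genes cannot be told apart. ERBB2 shares 571 exonic bases with MIEN1 (175 to 266 counts) and 194 with PGAP3 (288 to 418 counts), both on the other strand, beside at least 2391 counts for ERBB2 itself. EGFR shares 186 exonic bases with its antisense transcript EGFR-AS1, which had 1 to 11 counts.

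Genes that act around the receptors were read from 6 lists of 79 genes, of which 78 could be tested. The test called 5 of 78 for sh76, 2 for sh78, 2 for the mean of both hairpins and 6 for sh78 against sh76. These were 6.41%, 2.56%, 2.56% and 7.69% of the lists, beside 3.58%, 4.41%, 4.04% and 3.70% of all genes. The sh78 and mean shares lay below that background in this fit too. The lists were drawn up with earlier results of these data known. Their median log2 fold change was 0.00987 for sh76, −0.0158 for sh78 and −0.0269 for sh78 against sh76. With the replicate block the counts were 25, 14, 14 and 24 of 78, or 32.1%, 17.9%, 17.9% and 30.8%, beside 20.4%, 19.9%, 20.3% and 18.3% of all genes, so the sh78 and mean counts lay below that background.

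The 4 other ligands tested, EGF, EPGN, NRG2 and NRG4, gave 0 calls in edgeR in all 4 comparisons, with 0 at an unadjusted p under 0.05 and 0 in DESeq2. With the block EGF passed, lower, for sh78 against sh76, as the single call of that list (25% of it, beside 18.3% of all genes). EPGN, in the cluster with EREG and AREG, had 1.993, 2.582 and 2.871 CPM in scramble, 2.097, 3.925 and 2.815 CPM with sh76, and 2.155, 5.709 and 3.573 CPM with sh78, where AREG had its lowest values. Its groups overlapped (log2 fold change of sh78 0.60, 95% interval −0.125 to 1.32, edgeR adjusted p = 0.40). NRG3 had too few counts for testing.

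The list for shedding of the ligand precursors and its control held 6 genes. ADAM17, the main sheddase of AREG, TGFA, HBEGF and EREG, had 75.22, 71.88 and 79.0 CPM in scramble, 69.58, 74.09 and 76.63 CPM with sh76, and 70.29, 70.91 and 74.05 CPM with sh78. Its groups overlapped, with log2 fold changes of −0.04 and −0.07. For each hairpin against scramble edgeR called 0 of the 6, with 1 at an unadjusted p under 0.05, and DESeq2 called 0. With the block ADAM9 passed for sh76 (higher), and ADAM9 (lower) and ADAM12 (higher) passed for sh78. For sh78 against sh76, ADAM9 and ADAM10 (lower) and ADAM12 (higher) passed. These were 16.7%, 33.3% and 50% of this short list, beside 20.4%, 19.9% and 18.3% of all genes in that fit. ADAM9 was lower with sh78 (250.6, 298.1 and 290.8 CPM) than with sh76 (327.8, 354.3 and 361.4 CPM), with a log2 fold change of −0.31 and adjusted p = 0.0236. Leaving out sh76 replicate 2 or 3 or sh78 replicate 1 or 3 ended this call (−0.24 to −0.34, edgeR adjusted p = 0.0502 to 0.102).

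The 27 adaptors and kinases gave 1 call for each hairpin, or 3.7% of the list beside 3.58% and 4.41% of all genes. With the block they gave 8 for sh76 (2 higher, 6 lower) and 2 for sh78 (1 higher, 1 lower). These were 29.6% and 7.41% of the list, beside 20.4% and 19.9% of all genes in that fit. PLCG1, the phospholipase that EGFR phosphorylates, fell with sh76, from 55.35, 59.56 and 68.9 CPM in scramble to 43.55, 40.85 and 50.06 CPM, and had 61.24, 59.97 and 60.8 CPM with sh78. Its log2 fold change was −0.45 (SE 0.0944; adjusted p = 0.017), and sh78 exceeded sh76 by 0.44 (adjusted p = 0.0206). Without sh76 replicate 2 they were −0.39 (adjusted p = 0.0995) and 0.37 (adjusted p = 0.108). Leaving out scramble replicate 3 also ended the first call (−0.36, adjusted p = 0.0722). The second was lost without sh76 replicate 1 and without each sh78 library as well (0.42 to 0.45, adjusted p = 0.0567 to 0.0626). MAPK3, the kinase ERK1, was lower with sh78 by a fitted log2 change of −0.35 (adjusted p = 0.0479). Only fits without scramble replicate 1 or sh76 replicate 1 kept this call, and the other 7 gave −0.27 to −0.40 with adjusted p of 0.0573 to 0.187.

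The 14 inhibitors and turnover genes of the receptors gave 0 calls in edgeR and DESeq2 in all 4 comparisons, with 1, 2, 4 and 0 genes at an unadjusted p under 0.05 in edgeR. ERRFI1, which binds and blocks the EGFR kinase, had log2 fold changes of 0.02 and −0.08. LRIG1, which promotes loss of the receptors from the cell, had 0.21 (adjusted p = 0.289) and 0.20 (adjusted p = 0.321). With the block 3 of the 14 passed for each hairpin against scramble, LRIG1 and USP8 higher and PTPN1 lower. These were 21.4% of the list, beside 20.4% and 19.9% of all genes in that fit.

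Of the 17 genes of MAPK feedback and output, EGR1, FOS and ETV4 rose with sh76, or 17.6% of the list beside 3.58% of all genes. The list was drawn up with earlier results of these data known, so its shares describe it and are no test of enrichment. These 3 genes were also lower with sh78 than with sh76, and the median log2 fold change of the list was 0.04 for sh76, −0.13 for sh78 and −0.34 for sh78 against sh76. EGR1, an immediate early transcription factor, had 21.15, 24.0 and 26.07 CPM in scramble, 37.38, 46.52 and 43.85 CPM with sh76, and 18.69, 28.06 and 24.68 CPM with sh78. FOS, another immediate early gene, had 7.779, 7.863 and 7.062 CPM in scramble, 12.34, 13.04 and 11.45 CPM with sh76, and 6.087, 5.502 and 6.691 CPM with sh78. ETV4, an ETS factor downstream of ERK, had 25.72, 26.87 and 29.74 CPM in scramble, 33.99, 38.48 and 40.85 CPM with sh76, and 19.28, 26.96 and 22.09 CPM with sh78. In all 3 genes every sh76 library was above every other library. Replicate ranges lay apart, in either direction, for 22.5% of all genes for sh76 against scramble and for 21.8% for sh78 against sh76. With the block 7 of the 17 passed for sh76 (6 higher, 1 lower) and 4 for sh78 (1 higher, 3 lower). For sh78 against sh76 9 passed (1 higher, 8 lower). These were 41.2%, 23.5% and 52.9% of the list, beside 20.4%, 19.9% and 18.3% of all genes.

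With sh76 the fitted log2 values were 0.84 (SE 0.138, adjusted p = 0.00417) for EGR1, 0.70 (SE 0.135, adjusted p = 0.0109) for FOS and 0.46 (SE 0.119, adjusted p = 0.0477) for ETV4. Without sh76 replicate 2 these were 0.78 (adjusted p = 0.0312), 0.65 (adjusted p = 0.067) and 0.45 (adjusted p = 0.162). Leaving out scramble replicate 3 also ended the FOS call (0.65, adjusted p = 0.0542), and the ETV4 call was kept only without sh76 replicate 1, sh78 replicate 1 or sh78 replicate 2. For sh78 against sh76 they were −0.85 (adjusted p = 0.0042), −1.01 (adjusted p = 0.00106) and −0.74 (adjusted p = 0.00398), and none of these calls was lost in the 9 fits that left out a library. DUSP4, a phosphatase that dephosphorylates ERK, was lower with sh78 (3.124, 3.233 and 2.793 CPM) than in scramble (4.886, 5.105 and 4.765 CPM). The fitted log2 change of DUSP4 was −0.69 (SE 0.177, adjusted p = 0.0413), a call kept by 1 of the 9 fits, the one without sh76 replicate 1 (−0.63 to −0.73 and adjusted p of 0.0574 to 0.139 in the other 8).

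**Figure D4:**
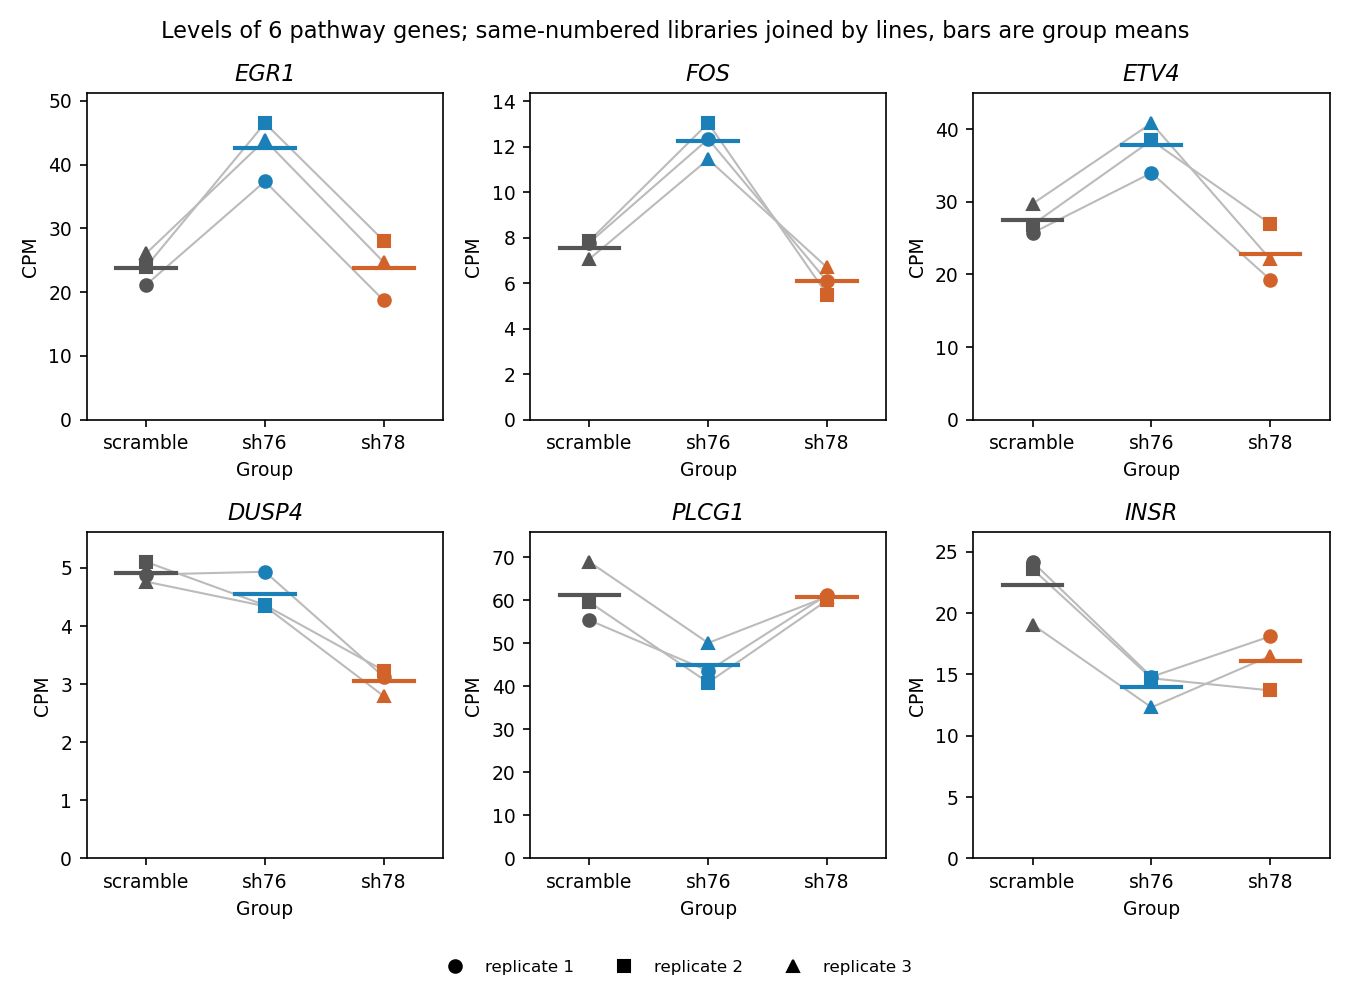
CPM of EGR1, FOS, ETV4, DUSP4, PLCG1 and INSR in every library, with grey lines joining libraries of the same replicate number and bars at group means. EGR1, FOS and ETV4 peak in the 3 sh76 libraries, PLCG1 is lowest there, DUSP4 is lowest with sh78, and INSR is lower than scramble in both hairpin groups.

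Of the 10 other receptor tyrosine kinases, 1 fell with sh76 and 2 in the mean of both hairpins, or 10% and 20% of the list beside 3.58% and 4.04% of all genes. This list too was drawn up with earlier results known, so its shares are no test of enrichment. For sh78 edgeR called 0, with 2 at an unadjusted p under 0.05, and DESeq2 called 2. With the block 6 of 10 passed for sh76, MET higher and IGF1R, INSR, FGFR2, DDR1 and EPHA2 lower. For sh78 3 passed, all lower (INSR, FGFR2 and EPHA2). For the mean 4 passed, MET higher and INSR, FGFR2 and EPHA2 lower. That fit called 20.4%, 19.9% and 20.3% of all genes in these comparisons. INSR, the insulin receptor, had 24.17, 23.59 and 19.06 CPM in scramble, 14.8, 14.68 and 12.31 CPM with sh76, and 18.1, 13.69 and 16.5 CPM with sh78. Every knock-down library was below every scramble library, a separation in either direction seen for 8.39% of all genes. The log2 fold change of INSR was −0.68 (adjusted p = 0.0131) for sh76 and −0.57 (adjusted p = 0.0122) for the mean of both hairpins. For sh78 alone it was −0.46 (adjusted p = 0.0735). Both calls were lost without scramble replicate 2 (−0.64, adjusted p = 0.0618, and −0.53, adjusted p = 0.0771), and the first also without sh76 replicate 3 (−0.60, adjusted p = 0.0621). EPHA2, an ephrin receptor, had a log2 fold change of −0.22 for the mean (adjusted p = 0.0398), kept only without sh76 replicate 1, sh76 replicate 3 or sh78 replicate 1. Without sh76 replicate 2 it was −0.20 (adjusted p = 0.101), and the other 5 fits that lost it gave −0.20 to −0.24 with adjusted p of 0.0762 to 0.15. On the scales log2(FPKM + 1) and log2(FPKM + 0.1), limma ended the calls of PLCG1, INSR, MAPK3, DUSP4, EPHA2 and ADAM9 and that of ETV4 with sh76 (adjusted p = 0.0552 to 0.0913). EGR1, FOS and the difference of ETV4 between the hairpins passed on both scales.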

How the data were processed

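Sequencing libraries were made from poly-A RNA without strand information, per the labels' protocols. Per the submitters' processing notes, HISAT2 2.0.5, featureCounts 1.5.0-p3 and the build hg38 were used. The authors deposited raw counts per gene and FPKM values for 58735 genes, all found in GENCODE 29. The tests used edgeR 4.0.16 (R 4.3.3) on these counts: filterByExpr (minimum count 10, minimum total 15; 17023 genes kept), TMM scaling, robust quasi-likelihood F tests with 1 coefficient per group over all 9 samples, 4 contrasts, Benjamini-Hochberg adjustment over all genes kept and a threshold of 0.05. Levels between genes were compared in deposited FPKM. The members and lists were chosen with earlier results of these data known. Genes named were the members, GPX3 and, per list, up to 4 called genes with the largest change in a single-hairpin comparison; ADAM9, ADAM17, EPHA2, EPGN, ERRFI1 and LRIG1 were named after their values were seen. A gene counted in the pathway lists is not reported here by name.

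Within-group pairs of libraries differed beyond counting noise (chi-square per degree of freedom 5.233 to 11.8). The labels number replicates 1 to 3 in each group. Deviations from group means correlated at r = 0.142 to 0.391 in the 9 same-numbered pairs and at −0.31 to 0.064 in the 18 others. This hint of pairing comes from the data and not from the labels. It was taken up only in the fit with the replicate block, and the main tests did not use it. Alternatives were DESeq2 1.42.0, RLE factors, no count filter, the replicate block (4 residual degrees of freedom in place of 6), limma 3.58.1 on log2(FPKM + 1) and log2(FPKM + 0.1), and leaving out each library. The tests were tested on simulated data.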

Additional observations from a re-analysis of the deposited data

Results flagged for a closer look

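A direct test of sh78 against sh76 passed for 5 of the pathway genes reported here and for no ERBB receptor or ligand. With the replicate block it also passed for EGFR (adjusted p = 0.0129), ERBB4 (adjusted p = 0.00314) and AREG (adjusted p = 0.0383). The log2 fold change was −0.8451 for EGR1, −1.008 for FOS and −0.7351 for ETV4, all in the list of MAPK feedback and output. It was −0.3144 for ADAM9 and 0.4365 for PLCG1. GPX3 itself differed between the hairpins by −0.86 (edgeR adjusted p = 0.0194), a call lost without any 1 of the sh76 libraries or sh78 replicates 2 and 3 (−0.80 to −0.87, adjusted p = 0.0604 to 0.0843).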

How the results depend on the processing

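Of 825 alternative values for single genes, 720 kept their direction and side of the threshold. Members called rose from 0 to 1 without a count filter for sh76, sh78 and the mean of both hairpins, and to 1, 1, 1 and 3 with the replicate block. The block raised counts over all genes to 3467, 3388, 3462 and 3117; without a filter they were 1149, 1212, 1181 and 1125. Pathway calls were 25, 14, 14 and 24 with the block, 10, 5, 9 and 10 without a filter, 5 for sh78 and 4 for the mean with DESeq2, and 2, 0, 0 and 3 with limma on both FPKM scales. Leaving out a library gave 0 to 1 members for sh76 and for sh78 against sh76. Over all genes it gave 237 to 655 calls for sh76, 418 to 810 for sh78, 299 to 726 for the mean and 273 to 780 for sh78 against sh76, lowest without sh76 replicate 2 (237 and 273) or scramble replicate 2 (418 and 299). For the pathway lists it gave 2 to 6, 0 to 3, 0 to 4 and 3 to 6.

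Signs of values that missed the threshold turned in 17 fits without a library, with these log2 fold changes and ranges over all such fits. For sh76 these were EGFR (−0.0566; range −0.0566 to 0.177), ERBB2 (0.038 and 0.0103; −0.0566 to 0.038), ERBB4 (−0.0275 to 0.119), AREG (−0.085 to 0.301) and BTC (−0.0168 to 0.103), each turning at its low end except ERBB2. For sh78 they were EGFR (0.0265 and 0.0286, from −0.207), TGFA (0.0504 and 0.0722, from −0.0795) and NRG1 (−0.155, up to 0.584). For the mean they were EGFR (−0.132, −0.0305 and −0.0582, up to 0.102) and ERBB2 (−0.00526, up to 0.0892), and for sh78 against sh76 HBEGF (−0.0528 and −0.145, up to 0.338). The positions kept by members in the FPKM order ran from 8 to 10 in scramble and from 6 to 10 in each hairpin group. The cause was not tested. Counts of 2 to 62 limit EREG, HBEGF and AREG.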
